A study of Mus musculus with 5 samples.

Results

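UPF1 is best known as the RNA helicase of nonsense-mediated mRNA decay (NMD), but it also works with RNA-binding proteins that send other mRNAs to decay. The genes described here encode 10 such proteins or proteins of the same decay routes, namely Stau1, Stau2, Zc3h12a, Rc3h1, Rc3h2, Slbp, Mov10, Zfp36, Zfp36l1 and Zfp36l2. They were chosen by name for their known roles, by a rule that uses no measured value but with earlier results of these data known, from the 55573 genes of the count table, and all 10 were found there under 1 identifier each. Poly(A) RNA was sequenced from N2A (Neuro-2A) mouse neuroblastoma cells, an established cell line, after transfection with 60 pmol of either control siRNA (siCtl, the commercial Silencer Negative Control #1, 2 libraries) or Upf1 siRNA (siUpf1, 3 libraries). A single siRNA was used against Upf1, both groups went through transfection, and the control group consisted of replicates 1 and 3. The labels do not say whether replicates were separate cultures. The paper describes western blots of siRNA-treated cells, which it links to the sequencing, as standing for independent experiments. It does not say that each sequenced library came from a separate one. The p-values therefore measure the spread between these libraries, which may be technical. The comparison asks which of these genes changed in mRNA level when Upf1 was knocked down.

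The proteins fall into 4 decay routes, with the helicase MOV10 beside them. Staufen proteins, encoded by Stau1 and Stau2, bind paired RNA in 3′ untranslated regions (3′ UTRs) and recruit UPF1 in Staufen-mediated decay. Regnase-1, encoded by Zc3h12a, is an endonuclease that cuts inflammatory mRNAs at stem-loops and acts with UPF1, while Roquin-1 and Roquin-2, encoded by Rc3h1 and Rc3h2, bind similar stem-loops and recruit the CCR4-NOT deadenylase complex. SLBP binds the stem-loop that replaces the poly(A) tail of replication-dependent histone mRNAs, and UPF1 takes part in the decay of these mRNAs when DNA replication stops. The ZFP36 proteins bind AU-rich elements (AREs) and also recruit CCR4-NOT. MOV10 is an RNA helicase that associates with UPF1 and with Argonaute proteins, and its gene is induced by interferon.

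Because the ZFP36 proteins bind AREs, including those in their own mRNAs, the 3′ UTR of 1 representative protein-coding transcript per gene was searched on the sense strand for the ARE core TATTTAT and for TTATTTATT, the longer form that ZFP36 proteins prefer and that contains the core. The longer form occurred once in each of 5 genes, in all 3 Zfp36 genes and both Roquin genes, and in none of the other 5. It was present in 7.39% of the 12577 tested protein-coding genes with such a transcript, and in 11.1% of those with a 3′ UTR of at least 774 nt, the shortest among the 5 genes. Of the 10 genes, 8 had a 3′ UTR at least this long. The 3′ UTRs of Rc3h1 (7181 nt) and Rc3h2 (5160 nt) were far longer, and no share was taken at such lengths. The sites are given here with 8 flanking bases on each side, from GENCODE M21 transcripts on build GRCm38, 5′ to 3′, with the motif in capitals.
Zfp36, chr7:28376953-28376977, minus strand: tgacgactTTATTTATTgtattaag
Zfp36l1, chr12:80108169-80108193, minus strand: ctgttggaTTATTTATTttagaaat
Zfp36l2, chr17:84184916-84184940, minus strand: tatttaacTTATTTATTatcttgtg
Rc3h1, chr1:160970045-160970069, plus strand: tttactcaTTATTTATTgagatgag
Rc3h2, chr2:37373289-37373313, minus strand: aagacattTTATTTATTttactctg
The motif began 589 nt after the stop codon in Zfp36, 1404 nt in Zfp36l1, 821 nt in Zfp36l2, 2256 nt in Rc3h1 and 1928 nt in Rc3h2. The core TATTTAT occurred 3 times in each of the Zfp36 genes and in Rc3h2, and 2 times in Rc3h1. A match is a description of the sequence, and binding was not measured.

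The libraries held 20402205 to 27717594 assigned reads, and every pair of replicates differed by more than sampling noise (chi-square per degree of freedom 5.22 to 21.1 within groups and 42.8 to 55.2 between groups). The value of 21.1 was that of siUpf1 replicates 1 and 2, against 8.41 and 7.54 for the other siUpf1 pairs. Upf1 itself fell to 46.8% of its siCtl level (log2 fold change -1.10 ± 0.0507 SE, adjusted p = 7.09e-101 by DESeq2). Of 11 markers of sympathoadrenal neuroblastoma, 9 were above 1 CPM (reads scaled to the library total) in every library, among them Phox2a, Gata2 and Hand2. The summed level of these markers was 858 to 869 CPM in siCtl and 1100 to 1120 CPM in siUpf1. Immune markers summed to 1.26 to 1.58 CPM over all libraries, with Ptprc under 0.2 CPM in each. In such bulk samples, fewer cells of a type and less RNA per cell cannot be told apart.

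Of the 10 genes, 1 was called higher (Rc3h2) and 5 were called lower (Mov10, Zfp36, Zfp36l2, Slbp and Stau1) by DESeq2 at an adjusted p-value under 0.05, and 4 were not called (Zfp36l1, Zc3h12a, Stau2 and Rc3h1). All 10 had an adjusted p-value. Among the 15191 genes tested, 44.9% were called, 22.0% as higher and 22.9% as lower. The 6 calls among 10 genes stand close to the first share, while the 5 lower calls lie above the last. Whether so few genes differ from the whole table was not tested. The siCtl and siUpf1 libraries did not overlap for 9 of the 10 genes, against 69.4% of all tested genes, and in 8 of the 9 the siUpf1 libraries were the lower ones and in 1 the higher ones (35.2% and 34.3% of tested genes). The median log2 fold change of the 10 genes was -0.29, against a median of -0.00239 over all tested genes. Without siCtl replicate 3, 3 of the 10 were called lower. By edgeR's quasi-likelihood test 6 of the 10 were called, where 54.6% of tested genes were.

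**Figure D1:**
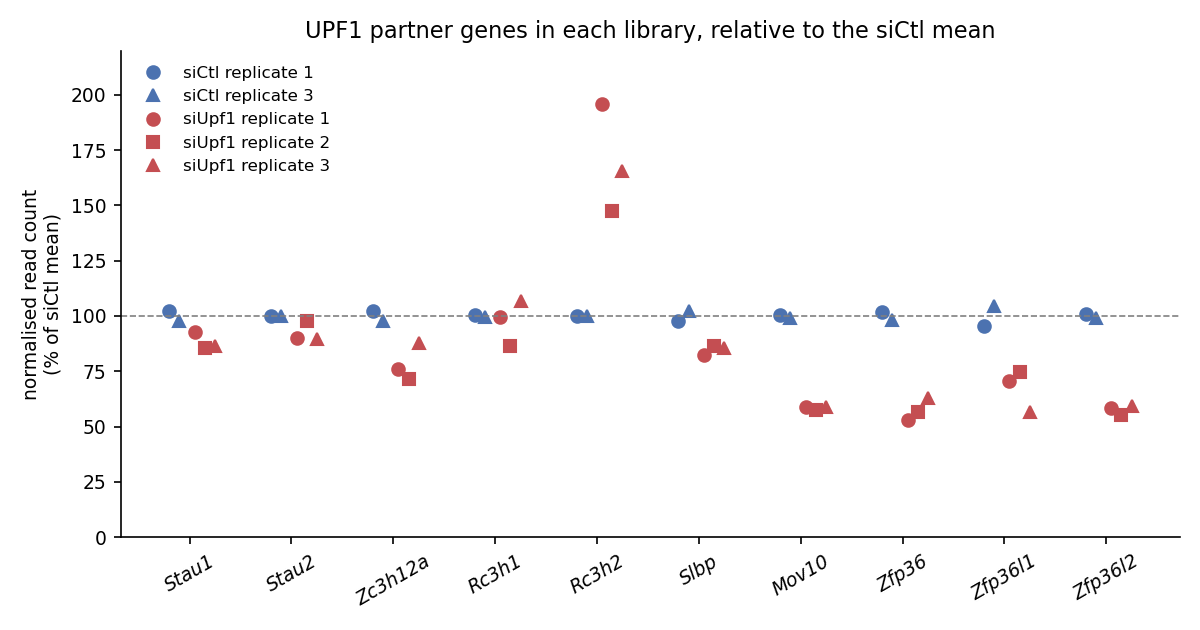
Normalised read count of each UPF1 partner gene in each of the 5 libraries, as a percentage of that gene's siCtl mean (vertical axis, from 0), with 1 column of points per gene, blue for siCtl and red for siUpf1, and the symbol shape giving the replicate number. Rc3h2 lies above 100% in every siUpf1 library, and Mov10, Zfp36 and Zfp36l2 lie between 53.1% and 63.0% in all of them.

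Zfp36, Zfp36l2 and Mov10 had the lowest fold changes among the called genes, and these were alike within their errors. Zfp36 encodes tristetraprolin, which is induced rapidly by serum and stress and limits the life of cytokine and growth-factor mRNAs. Its normalised read counts were 540.9 and 520.8 in the siCtl libraries and 281.9, 300.0 and 334.3 in siUpf1 replicates 1, 2 and 3. Every siUpf1 library lay below both siCtl libraries, and the mean fell from 531 ± 14.2 (SD, n = 2) to 305 ± 26.6 (SD, n = 3), a log2 fold change of -0.80 ± 0.125 (SE, adjusted p = 1.44e-09 by DESeq2).

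Zfp36l2, a paralog of Zfp36 with roles in oocyte and blood-cell development, was the most abundant of the family. It had 2549 and 2507 normalised read counts in siCtl and 1475, 1396 and 1504 in siUpf1. The groups were far apart relative to their spread, with means of 2528 ± 30.1 and 1458 ± 56.0 and a log2 fold change of -0.79 ± 0.0639 (SE, adjusted p = 1.18e-33 by DESeq2). Its siUpf1 level was 57.7% of siCtl, next to 57.5% for Zfp36.

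Zfp36l1, the third paralog, was hardly expressed in these cells. The raw counts were 23 and 28 in siCtl and 20, 15 and 16 in siUpf1, which gave 24.1 and 26.4 against 17.8, 18.8 and 14.3 normalised read counts. The siUpf1 libraries were again all lower, but the fold change was known only poorly (log2 fold change -0.58, 95% interval -1.58 to 0.41, adjusted p = 0.377 by DESeq2), an interval that holds both no change and the values of its paralogs. The processed pseudogene Zfp36l1-ps had 1 to 5 raw counts per library, and how many reads of Zfp36l1 also match this copy was not tested.

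MOV10 has roles in the silencing of retroelements and in antiviral defence. Mov10 had 2197 and 2168 normalised read counts in the siCtl libraries and 1284, 1250 and 1283 in the siUpf1 libraries. The libraries of each group were tightly clustered, and the fall to 58.3% of siCtl corresponded to a log2 fold change of -0.78 ± 0.0652 (SE, adjusted p = 3.29e-31 by DESeq2). Only 5.11% of tested genes had a lower fold change, with 4.91% for Zfp36 and 4.98% for Zfp36l2. Other interferon-stimulated genes moved in the same direction. Of 20 such genes tested, 17 were called lower, against 22.9% of all tested genes, and the other 3 were not called. The median log2 fold change was -1.09, with library medians of -0.84, -1.16 and -1.06. The part of the interferon response in the Mov10 result was not tested.

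Rc3h2 was the one partner gene with a rise. It had 1817 and 1814 normalised read counts in the siCtl libraries and 3554, 2678 and 3008 in siUpf1 replicates 1, 2 and 3. All siUpf1 libraries exceeded both siCtl libraries, although the siUpf1 values were spread more widely than those of most of the other genes. Replicates 1 and 2, the furthest apart here, were also the siUpf1 pair with the highest chi-square over the count table. The mean rose from 1815 ± 1.68 (SD, n = 2) to 3080 ± 442 (SD, n = 3), which is 170% of siCtl and a log2 fold change of 0.76 ± 0.153 (SE, adjusted p = 3.24e-06 by DESeq2), and 7.42% of tested genes had a higher fold change. The spread between the siCtl libraries was smaller than counting error alone would give, and 2 libraries describe the control group poorly.

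Rc3h1, which encodes the better studied Roquin-1, had 1388 and 1379 normalised read counts in siCtl and 1377, 1196 and 1481 in siUpf1. The siCtl values lay within the range of the siUpf1 values, and the log2 fold change was -0.03 (95% interval -0.20 to 0.14, adjusted p = 0.809 by DESeq2). The upper end of that interval is below the lower end for Rc3h2, which was 0.46.

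Zc3h12a had few reads, with 118.5 and 113.2 normalised read counts in siCtl and 88.0, 82.8 and 101.6 in siUpf1. All siUpf1 libraries were lower, at 78.4% of siCtl on average, yet the gene was not called (log2 fold change -0.35, 95% interval -0.80 to 0.11, adjusted p = 0.234 by DESeq2). The edgeR adjusted p-value was 0.0638.

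SLBP protein accumulates in S phase, when histone mRNAs are needed. The Slbp mRNA had 1162 and 1215 normalised read counts in siCtl and 980, 1025 and 1017 in siUpf1. The siUpf1 libraries were all below the siCtl libraries by a small margin, at 84.7% of the siCtl mean (log2 fold change -0.24 ± 0.0778 SE, adjusted p = 0.0059 by DESeq2). The call was lost without siCtl replicate 3 (adjusted p = 0.147). Of 18 S-phase genes, 6 were called lower and 2 higher, against 22.9% and 22.0% of all tested genes (median log2 fold change -0.09).

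Stau1 had the smallest of the differences that were called. This gene, which is expressed in most tissues, had 2398 and 2297 normalised read counts in siCtl and 2183, 2009 and 2032 in siUpf1. This small difference, to 88.4% of siCtl, was called (log2 fold change -0.18 ± 0.0631 SE, adjusted p = 0.0133 by DESeq2), but not with total-count scaling (adjusted p = 0.0643). With any library other than siUpf1 replicate 1 left out it was not called, the adjusted p-values being 0.199 without siCtl replicate 1, 0.0581 without siCtl replicate 3, 0.0703 without siUpf1 replicate 2 and 0.0864 without siUpf1 replicate 3.

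Stau2, the paralog that is prominent in neurons and takes part in dendritic mRNA transport, had 861.6 and 864.2 normalised read counts in siCtl and 778, 842 and 772 in siUpf1. The siUpf1 libraries were lower without overlap, and replicate 2 came closest to the siCtl mean, at 97.6%. Stau2 was not called (log2 fold change -0.12, 95% interval -0.29 to 0.06, adjusted p = 0.299 by DESeq2).

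**Figure D2:**
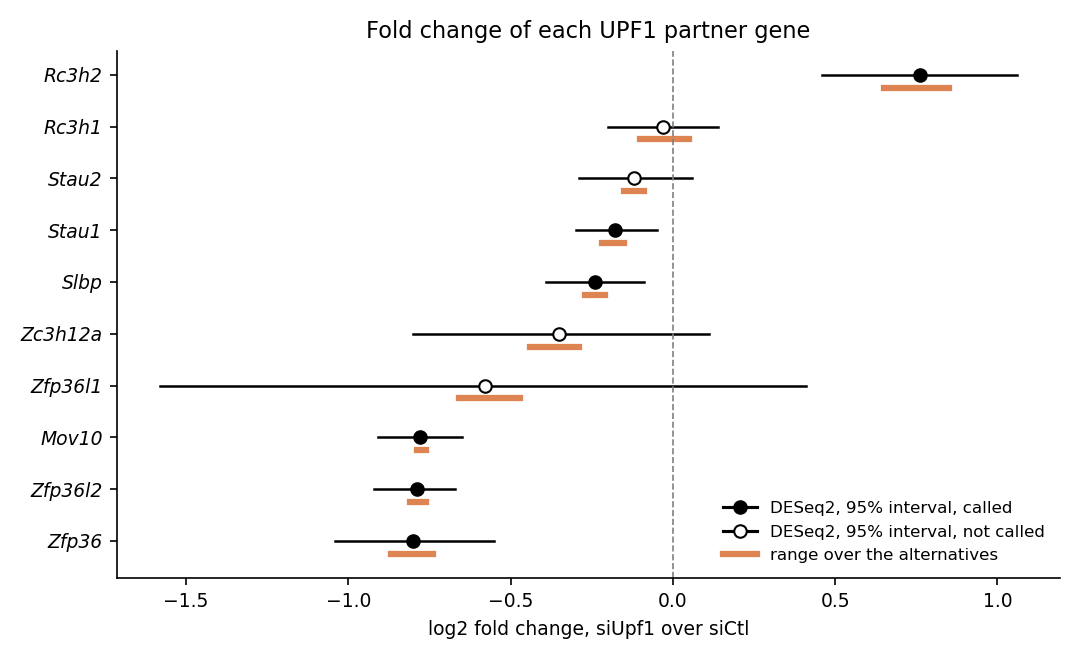
Log2 fold change of siUpf1 over siCtl for each UPF1 partner gene (horizontal axis), with the DESeq2 95% interval as a black line, filled points for called genes and open points for the others, and the range of the fold change over 11 alternative settings as an orange bar. The intervals of Mov10, Zfp36l2 and Zfp36 lie below -0.5 and that of Rc3h2 above 0.4.

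Whether paralogs responded unequally was asked from the log2 ratio of their normalised read counts in each library. The ratio of Rc3h1 to Rc3h2 was -0.39 and -0.40 in siCtl and -1.37, -1.16 and -1.02 in siUpf1. Both groups were thus separate, with a difference of -0.79 between their means and a pooled SD of 0.14. An exact two-sided permutation test gave p = 0.1, the smallest value that 2 against 3 libraries allow, and 0.5 after Benjamini-Hochberg adjustment over the 5 pairs. The comparison therefore could not pass the threshold.

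The ratio of Zfp36 to Zfp36l2 was -2.24 and -2.27 in siCtl and -2.38, -2.22 and -2.17 in siUpf1. These values interleaved, and the difference between groups was -0.01 with a pooled SD of 0.094 (exact permutation p = 1). The ratio of Stau1 to Stau2 differed by -0.06 between groups (pooled SD 0.10, exact permutation p = 0.6). Both ratios with the scarce Zfp36l1 were within about 1 SD of no difference, at -0.23 for Zfp36 over Zfp36l1 (pooled SD 0.27, exact permutation p = 0.4) and 0.23 for Zfp36l1 over Zfp36l2 (pooled SD 0.22, exact permutation p = 0.3).

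**Figure D3:**
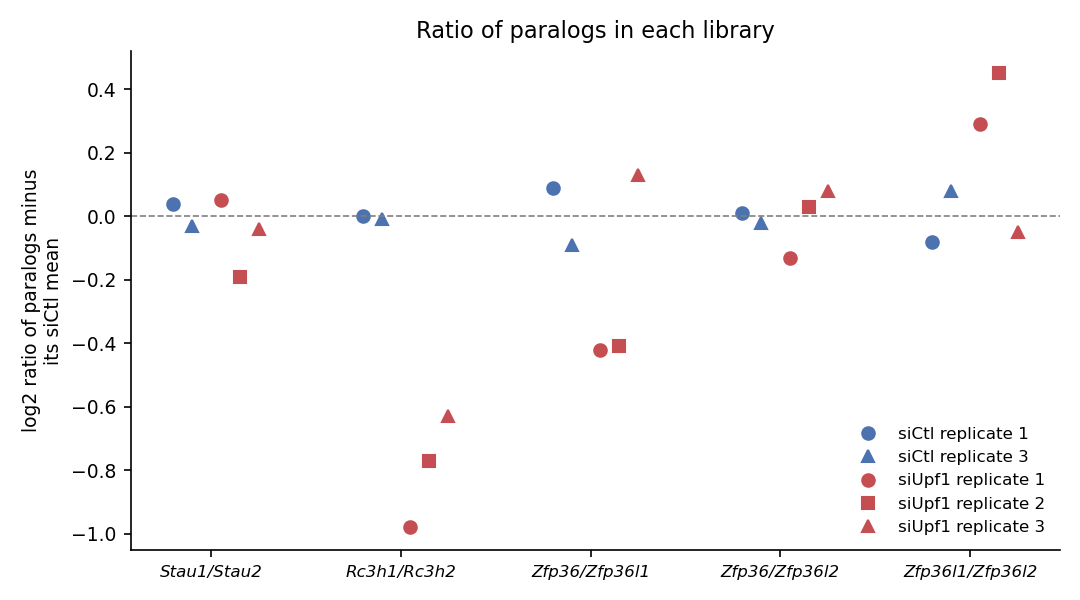
Log2 ratio of the normalised read counts of 2 paralogs in each library, minus the siCtl mean of that ratio (vertical axis), for 5 pairs, with blue for siCtl, red for siUpf1 and the symbol shape giving the replicate number. The Rc3h1/Rc3h2 ratio is lower in all 3 siUpf1 libraries, whereas the siUpf1 points of Stau1/Stau2 and Zfp36/Zfp36l2 lie on both sides of the siCtl mean.

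Levels of different genes were compared as normalised read counts per kb of merged exons. In siCtl, Zfp36l2 was highest at 716 ± 8.5 (SD, n = 2), followed by Mov10 at 389 ± 3.7 and Stau1 at 387 ± 12, whose libraries overlapped. Next came Slbp (196), Zfp36 (153), Stau2 (128), Rc3h1 (122) and Rc3h2 (92.5), and no neighbours in this stretch overlapped. Zc3h12a (40.2) and Zfp36l1 (8.45) were lowest. Zfp36l2 exceeded 86.6% of tested protein-coding genes per length and Zfp36l1 exceeded 7.83%, so that levels within the Zfp36 family lay far apart.

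In siUpf1 the order differed. Stau1 (342) stood above Mov10 (227), Rc3h2 moved from rank 8 to rank 5 at 157 ± 23, and Zfp36 moved from rank 5 to rank 8 at 88.0 ± 7.7. The libraries of Slbp (166) and Rc3h2 overlapped, as did those of Rc3h1 (119) and Stau2 (118). The order depended on the length used. The merged exons of Rc3h2 (19624 nt) include retained introns and are longer than its representative transcript (8799 nt). Merged exons were also longer in Slbp (6076 against 1906 nt), Stau2 (6747 against 3030 nt), Stau1 (6065 against 2860 nt) and Mov10 (5607 against 3460 nt). In Zfp36l2 both lengths were 3530 nt. Per kb of the representative transcript, Stau1 was highest in siCtl (821), before Zfp36l2 (716), Mov10 (631) and Slbp (624), and Rc3h2 (206) stood above Rc3h1 (126).

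**Figure D4:**
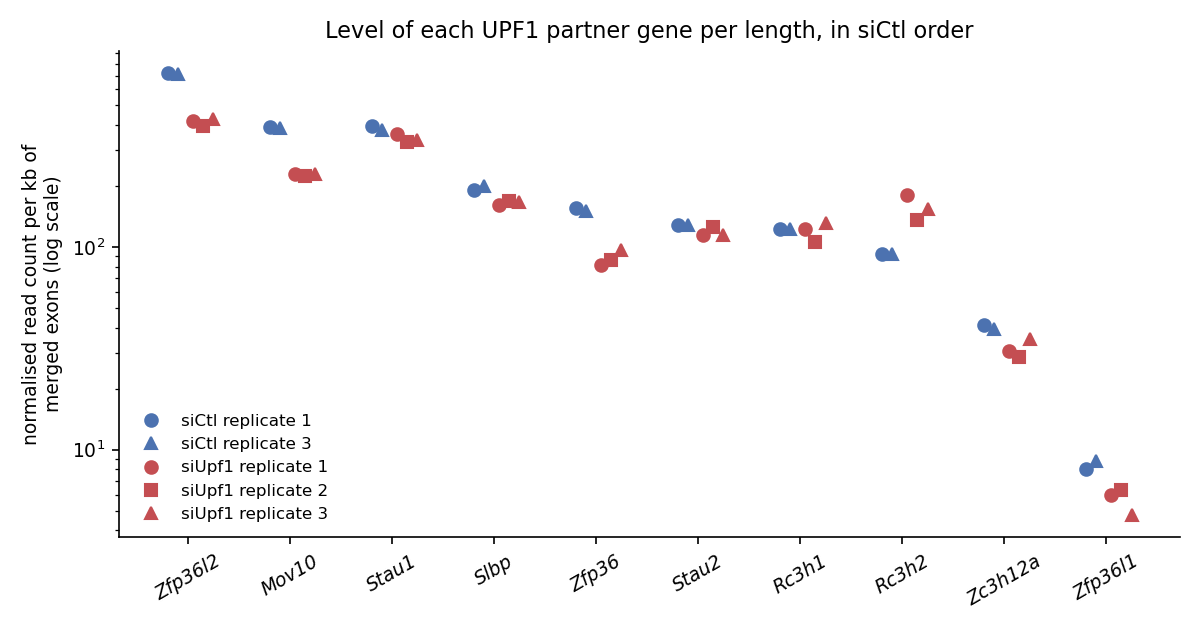
Normalised read count per kb of merged exons (vertical axis, log scale) of each UPF1 partner gene in each library, ordered by the siCtl mean, with blue for siCtl, red for siUpf1 and the symbol shape giving the replicate number. Zfp36l2 is highest in both groups (716 in siCtl and 413 in siUpf1), and Zfp36l1 is lowest (8.45 and 5.67).

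Gene structure was examined next, since counts per gene do not separate isoforms. On build GRCm38, the genes that fell lie at chr7:28376784-28380253 (Zfp36), chr17:84183931-84187947 (Zfp36l2), chr3:104794836-104818563 (Mov10), chr5:33634952-33652574 (Slbp) and chr2:166947549-166996299 (Stau1), all on the minus strand. Rc3h2, which rose, lies at chr2:37370069-37422903 on the minus strand. The genes not called lie at chr12:80107754-80113013 (Zfp36l1), chr4:125118423-125127840 (Zc3h12a) and chr1:16228674-16520112 (Stau2) on the minus strand, and at chr1:160906418-160974978 (Rc3h1) on the plus strand. GENCODE M21 lists NMD transcripts for 4 of the 10 genes, 2 for Mov10 and 1 each for Rc3h2, Stau1 and Stau2, and for 28.4% of tested protein-coding genes. Of these 4 genes, Rc3h2 rose, Mov10 fell and Stau1 fell by the call that depends on the setting. Rc3h2 and Stau1 also have 5 annotated retained-intron transcripts each. None of the 10 representative transcripts has an exon junction more than 50 nt after the stop codon, a feature that triggers NMD and was present in 0.421% of tested protein-coding genes. An ATG in the 5′ UTR, which can start an upstream reading frame, was present in 7 of the 10 (51.7% of tested protein-coding genes), with 5 in the 1056-nt 5′ UTR of Zfp36 and none in Zfp36l2, Zfp36l1 or Mov10.

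The 3′ UTRs ranged from 313 nt in Mov10, longer than 20.6% of those of tested genes, to 7181 nt in Rc3h1, longer than 99.0%. That of Rc3h2 had 5160 nt (96.8%). Rc3h2 was called and Rc3h1 was not, and what 3′ UTR length contributed to either value was not tested. The median of the 10 was 1085 nt, against 984 nt over tested protein-coding genes.

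The Upf1 siRNA itself could pair with other mRNAs through bases 2 to 8 of either strand. The matching 7-mer of the antisense strand, GATAATT, occurred in the 3′ UTRs of Rc3h1 and Slbp (7.56% of tested protein-coding genes), and that of the sense strand, AACCTTG, in those of Rc3h1, which held 2, and Zfp36l1 (9.80%), each searched on the sense strand of the mRNA. The 3′ UTRs of Mov10, Zfp36, Zfp36l2, Rc3h2 and Stau1 held neither. What such matches contributed to the values of Slbp and Zfp36l1 was not tested.

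Exons of Slbp, Zfp36, Zfp36l1 and Zfp36l2 overlap annotated RNAs of the opposite strand. Reads had been counted by strand, and the overlapping Gm44710 (at Zfp36), Gm10459 (at Slbp) and Gm26669 (at Zfp36l1) had at most 5, 3 and 2 raw counts per library, while AC132455.1 (at Zfp36l2) was not analysed here. Exons of none of the 10 genes overlap an annotated gene on the same strand. Snord90, a small nucleolar RNA encoded in an intron of Rc3h2, had 0 counts in all libraries.

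Messenger RNAs known as targets of the 4 routes were then counted from lists. Of 8 mRNAs described as targets of Staufen-mediated decay, 7 were tested, with a median log2 fold change of 0.29. Of the 7, 4 were called higher and 1 lower, against 22.0% and 22.9% of all tested genes. Those that rose were Jun (0.48, SE 0.0587), which encodes a transcription factor of the AP-1 complex, Gap43 (0.45), which encodes a growth-cone protein, Sowahc (0.38) and Arf1 (0.29), a small GTPase of the Golgi.

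Targets described for Regnase-1 or the Roquins are mostly immune mRNAs, and 9 of 16 had enough reads to be tested. Il6, which encodes the cytokine interleukin-6, rose from 161 ± 4.96 to 291 ± 28.9 normalised read counts (log2 fold change 0.85 ± 0.164 SE, adjusted p = 1.02e-06 by DESeq2). The count of called-higher genes was 1 of 9, against 22.0% of all tested genes, and 2 without siUpf1 replicate 2. Of the 9, 2 were called lower, Ier3 (-0.56) among them, against 22.9% of all tested genes. The other 6 were not called, Zc3h12a among them. The median log2 fold change was -0.16.

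Of 26 ARE-containing mRNAs described as ZFP36 targets, 20 were tested, and 4 were called higher and 6 lower, with a median log2 fold change of -0.20. The median was -0.12 without siCtl replicate 1 and -0.10 without either siCtl replicate 3 or siUpf1 replicate 3. The list includes the Zfp36 genes themselves, and Zfp36 and Zfp36l2 are 2 of the 6 that fell. Cxcl1, a chemokine, had the largest rise (0.99, SE 0.215), followed by Fos (0.34) and Dusp6 (0.27). Cdkn1a, the cell-cycle inhibitor p21, fell from 2152 ± 70.2 to 1394 ± 102 normalised read counts (log2 fold change -0.63 ± 0.0733 SE, adjusted p = 1.65e-16 by DESeq2). The 4 and 6 calls among 20 genes compare with 22.0% and 22.9% of all tested genes.

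Other proteins that bind AREs were called in both directions, with 5 of 11 higher and 4 lower, against 22.0% and 22.9% of tested genes. Their median log2 fold change was 0.03. Elavl2 (1.17) and Elavl4 (1.13), neuronal members of the Hu family that stabilise ARE-containing mRNAs, had the largest rises, and Tia1, a translational repressor, rose by 0.65 on the log2 scale. Ybx1 (-0.26), Hnrnpab (-0.21) and Pcbp2 (-0.19) were lower by small amounts.

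In the CCR4-NOT complex, with its TOB adaptors, 7 of 13 genes were called lower and 2 higher, against 22.9% and 22.0% of tested genes. The median log2 fold change of the 13 was -0.16. Cnot7, which encodes a catalytic deadenylase subunit, rose from 2191 ± 84.4 to 4150 ± 235 normalised read counts (log2 fold change 0.92 ± 0.0607 SE, adjusted p = 2.76e-50 by DESeq2). Cnot9 fell from 3137 ± 42.4 to 1766 ± 83.9 (log2 fold change -0.83 ± 0.0611 SE, adjusted p = 2.89e-40 by DESeq2), and Cnot1, the scaffold of the complex, had a log2 fold change of -0.37. The number called lower was 4 without siCtl replicate 1 or siUpf1 replicate 2.

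Among 19 other factors that process, uridylate or degrade histone mRNAs, 9 were called lower and 4 higher. Of all tested genes, 22.9% were called lower and 22.0% higher. The median log2 fold change of the 19 was -0.17. Tut4, a uridylyltransferase, fell from 3113 ± 12.0 to 1756 ± 256 normalised read counts (log2 fold change -0.83). Zfp473, a component of the U7 snRNP that cuts histone pre-mRNA, had few reads and a log2 fold change of -1.43 ± 0.311 (SE, adjusted p = 1.85e-05 by DESeq2). Ctif, which works with SLBP in the translation of histone mRNAs, rose (0.83), as did Snrpb (0.85) and Cpsf2 (0.51).

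Histone mRNAs that end in the SLBP-bound stem-loop have no poly(A) tail and are largely lost in poly(A) selection. Of 70 replication-dependent histone genes by symbol, 21 were tested. Of the 21, 3 were called higher, against 22.0% of all tested genes, and 18 were not called. Their median log2 fold change was 0.38, with library medians of 0.20, 0.43 and 0.64. Hist1h1c, a linker histone gene, rose from 404 ± 26.5 to 739 ± 23.2 normalised read counts (log2 fold change 0.87 ± 0.104 SE, adjusted p = 8.17e-16 by DESeq2), and Hist2h2be rose by 0.51 on the log2 scale. Only 1 gene was called higher without siUpf1 replicate 3, while edgeR called 8. These counts describe the polyadenylated fraction, and a change in the amount of histone mRNA cannot be told apart from a change in its share with a tail.

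Gene groups that share inducers with Zfp36 and Zc3h12a were called in both directions, more often lower than higher. Of all tested genes, 22.9% were called lower and 22.0% higher. Of 16 immediate early genes, 7 were called lower and 2 higher (median log2 fold change -0.30), with Egr1 at -1.0, Atf3 at -0.73 and Fosb at -0.56 against Jun at 0.48 and Fos at 0.34. With any 1 library left out, 1 immediate early gene was called higher. Of 14 NF-kappaB targets tested, 5 were called lower and 2 higher (median log2 fold change -0.38), with Relb at -0.51, Nfkbia at -0.46 and Nfkb2 at -0.44 against Cxcl1 at 0.99 and Tnfaip3 at 0.72. Leaving out siCtl replicate 3 left 2 NF-kappaB targets called lower, and leaving out siUpf1 replicate 3 left 3.

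Of 9 tested genes from related families outside the 10, 2 were called higher and 2 lower (median log2 fold change -0.04), close to the 22.0% and 22.9% of all tested genes. Adarb1 (0.56) and Prkra (0.32), which like the Staufens encode proteins that bind paired RNA, rose, while Tarbp2 (-0.43), of the same kind, and N4bp1 (-0.26), a relative of Regnase-1, fell. Without either siCtl library, 1 was called higher.

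**Figure D5:**
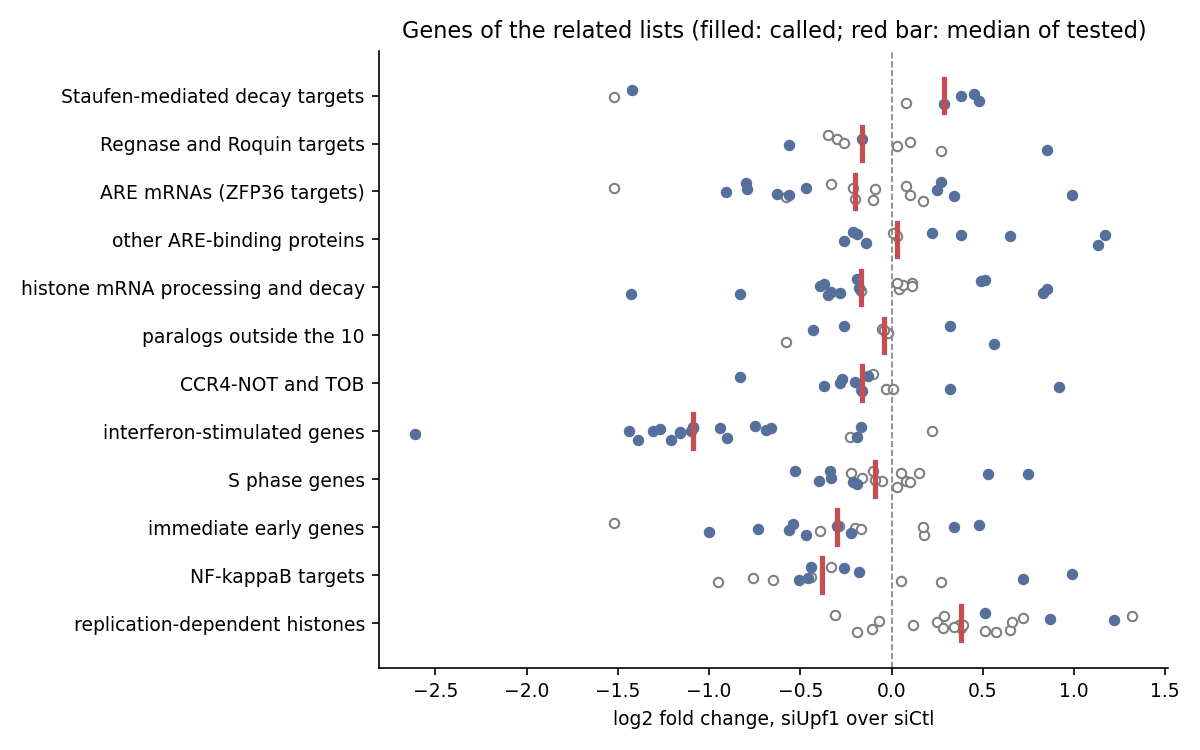
Log2 fold change of siUpf1 over siCtl (horizontal axis) of the tested genes in 12 lists related to the UPF1 partner genes, with 1 point per gene, filled where called by DESeq2, and a red bar at the median of each list. The interferon-stimulated genes have a median of -1.09, and the other medians lie between -0.38 and 0.38.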

How the data were processed

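RNA-seq counts of 5 N2A libraries (2 siCtl, 3 siUpf1), grouped by their titles, were analysed. The deposited values are raw read counts per gene. The authors trimmed reads with fastp, mapped them to GRCm38.p6 with STAR, and assigned them to exons by strand with featureCounts (Subread 1.6.4), whose default leaves out reads that map to several places. PCR duplicates remain. Depth was 20402205 to 27717594 counts. All 55573 genes were fitted with DESeq2 1.42.0 in R 4.3.3 by the Wald test on group alone, with its default size factors and filtering and Benjamini-Hochberg adjustment, and called under 0.05, the study's threshold. The 95% intervals derive from the SE. Alternatives were edgeR 4.0.16 (quasi-likelihood), TMM or total-count size factors, a minimum of 10 counts in 2 libraries, no independent filtering, a replicate block, and leaving out each library. Paralog ratios used a pseudocount of 0.5 (alternatively 5). Gene structures and transcript sequences came from GENCODE M21 (GRCm38), which held 99.1% of identifiers and all 10 genes. Its representative transcripts can differ from the isoforms of N2A cells.

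The genes and lists were chosen with earlier results of these data known. The naming rule took the 10 genes, Upf1, and from each list up to 3 called genes with the highest and 3 with the lowest fold change, given a mean of 50 or more normalised counts, and not all of the latter are named, since some are not reported here. Arf1 and the neighbouring genes were named after their values were seen. The procedure was tested on simulated counts, which had the same replicate spread in both groups. That test did not cover replicates of unequal spread.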

Additional observations from a re-analysis of the deposited data

How the results depend on the processing

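Rc3h2, Mov10, Zfp36 and Zfp36l2 kept their call and direction in all 11 alternatives, with log2 fold changes of 0.65 to 0.85, -0.79 to -0.76, -0.87 to -0.74 and -0.81 to -0.76. Of 110 values of the 10 genes under alternatives, 8 lost a call (6 of Stau1, 2 of Slbp) and 2 changed sign, both of Rc3h1, which was never called (0.05 without siUpf1 replicate 2 and under the replicate block, and -0.10 to 0.05 over omitted libraries). Libraries numbered 1 and 3 hardly shared deviations from their group means (correlations -0.0858 and -0.0742). With 2 siCtl libraries these values are not independent, and the labels do not say whether the numbers pair libraries. Replicate 2 exists only in siUpf1, so under the block it adds nothing to the fold change. The 2 sign changes of Rc3h1 are therefore not separate results. The block also leaves fewer degrees of freedom, so a call lost under it does not by itself show a weaker effect. Under the replicate block, 1957 genes were called higher and 1962 lower, and 3 of the 10 genes lower (3 to 5 with a library left out). In the lists the block gave 3 called lower for CCR4-NOT, 4 for histone mRNA processing, 2 for NF-kappaB targets, and 1 each for Regnase and Roquin targets and related families. Called higher under it were 2 ARE mRNAs and 1 each of the histones, related families, immediate early genes and NF-kappaB targets, and the Staufen target median was 0.36. With edgeR, and with the 10-count minimum, 2 Staufen targets were lower and 2 Regnase and Roquin targets higher; edgeR called 8 histones higher. Total-count scaling left 4 CCR4-NOT genes lower. Without independent filtering the median was -0.28 for Regnase and Roquin targets and -0.40 for ARE mRNAs, since genes with few reads enter. The causes of the other changes were not tested.

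With each library left out, calls ranged from 1 to 2 higher for Regnase and Roquin targets, related families and histones, from 5 to 9 lower for histone mRNA processing, from 4 to 8 lower for CCR4-NOT and from 2 to 5 lower for NF-kappaB targets, and 1 immediate early gene was higher each time. Medians ranged from 0.28 to 0.36 (Staufen targets), -0.17 to -0.07 (Regnase and Roquin targets), -0.21 to -0.10 (ARE mRNAs), 0.03 to 0.06 (ARE-binding proteins), -0.13 to -0.06 (S phase), -0.33 to -0.20 (immediate early) and -0.46 to -0.24 (NF-kappaB). With 1 siCtl library left, that library is assumed to vary like the siUpf1 libraries. The difference in the Zfp36 to Zfp36l2 ratio, near 0, changed sign without siCtl replicate 1 (0.01), without siUpf1 replicate 1 (0.06) and with a pseudocount of 5 (0.00), within -0.05 to 0.06 over omitted libraries. Per kb of the representative transcript, siCtl levels were 631 (Mov10), 821 (Stau1), 624 (Slbp), 190 (Zfp36), 285 (Stau2), 126 (Rc3h1), 206 (Rc3h2) and 42.0 (Zc3h12a). Depth limits Zfp36l1, Zc3h12a and the immune targets.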
